A study of Rattus norvegicus with 22 samples.

Results

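Il11, Clcf1, Il4r and Socs3 were followed across the cortex of rats with a brain injury and of sham-operated rats. They are 4 of the 32545 gene identifiers in the deposited count table, and they stand for the IL-6 family of cytokines, the IL-4 receptor and the feedback on JAK-STAT signalling. The 4 genes were taken as a fixed list of names. Names could be paired with Ensembl identifiers only through the study's tables of genes it had called, and 1774 of the 1822 identifiers with a name, all 4 genes among them, were in the table of ipsilateral calls. Their difference between injured and sham rats in the ipsilateral hemisphere was therefore known when they were chosen, and it is given here as a description and not as independent evidence. Comparisons that use the ipsilateral PBBI libraries again, such as those between the hemispheres, share this limit. The 4 identifiers, with the length of each gene's exons in the count table, are ENSRNOG00000017386 for Il11 (1691 bases), ENSRNOG00000018752 for Clcf1 (2257 bases), ENSRNOG00000015441 for Il4r (3561 bases) and ENSRNOG00000002946 for Socs3 (863 bases).

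All animals were adult male rats of a strain that the labels spell Sprague-Daley and the paper Sprague-Dawley. In penetrating ballistic brain injury (PBBI, 6 rats) a probe was driven into the right frontal brain and a small balloon on it was briefly inflated, while sham rats (5 rats) went through the same steps with no probe inserted. EEG electrodes had been implanted in every rat of both groups some days earlier, so the sham cortex had undergone surgery as well. Cortex was taken 24 h after the procedure from the injured (ipsilateral) and the opposite (contralateral) hemisphere of each rat, which gave 22 libraries in 4 groups.

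Cytokines of the IL-6 family share the signalling receptor chain gp130. Il11 encodes interleukin-11, which binds its own receptor chain before it engages gp130, and Clcf1 encodes cardiotrophin-like cytokine factor 1, a ligand of the ciliary neurotrophic factor receptor that signals through gp130 and the LIF receptor. Binding activates Janus kinases (JAKs), which phosphorylate the transcription factor STAT3, and STAT3 in turn drives transcription of Socs3, whose product binds gp130 and the JAKs and damps the signal. Il4r encodes the receptor chain shared by interleukin-4 and interleukin-13, which signals mainly through STAT6. In injured brain, gp130 cytokines are known for their effects on astrocytes and on the survival of neurons.

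Il11 had the largest difference of the 4 genes, and its promoter is shown for that reason. RefSeq (assembly GRCr8, which is later than the Rnor 6.0 build of the counts) places the 250 bases before its start at chr1:78098372-78098621 on the + strand. The capitals mark its only match to the motif of AP-1 (TGANTCA), a factor built of Fos and Jun proteins, which begins at position -142 relative to the start.

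Il11: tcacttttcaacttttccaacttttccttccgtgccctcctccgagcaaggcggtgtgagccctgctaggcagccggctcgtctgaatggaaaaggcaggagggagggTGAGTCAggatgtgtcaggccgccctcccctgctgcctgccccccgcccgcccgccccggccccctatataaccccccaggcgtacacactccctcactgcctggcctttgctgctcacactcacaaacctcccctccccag

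On either strand of windows of this length, AP-1 (TGANTCA) was matched in 6.34% of 33469 RefSeq promoters, the STAT motif (TTCNNNGAA) in 7.67% and the STAT6 motif, which is wider by 1 base, in 6.25%. The Il11 window held neither STAT motif, and the windows of Il4r and Socs3 held none of the 3 motifs. The start at which the Socs3 window ends lies 1207 bases inside the gene as RefSeq draws it. This window therefore does not show the sequence before the gene's 5′ end. Clcf1 had no entry. Of the 36 JAK-STAT genes that could be named, 29 had a window, and the STAT motif was found in 4 of them, namely Socs1, Cish, Irf1 and Icam1. These are matches of letters only.

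Total counts were between 42085341 and 63412426 per library. One ipsilateral PBBI library, that of rat 85, stood apart: its mean correlation with the other libraries of its group was 0.835, against 0.933 or more for each other ipsilateral library. The gp130 and JAK-STAT results were therefore also computed without it. Markers of neurons, oligodendrocytes and endothelium could not be named, so the tissue label could not be checked against them; of the astrocyte markers, Gfap and Aldh1l1 were detected in every group. In bulk tissue, fewer cells of a type and less RNA per cell cannot be told apart. Rats were operated on in weekly groups, and the labels do not give the week, so such batches were not tested. The titles of both libraries of rat 81 and of the contralateral library of rat 82 contain PFC. All other titles contain CC or CI instead, and what this difference marks was not tested.

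In the ipsilateral hemisphere all 4 genes were higher in PBBI than in sham rats, with no overlap between the groups. Il11 rose most, followed by Socs3, Clcf1 and Il4r. Values are counts scaled to a common library size (CPM) after TMM normalization, which takes account of each library's total count and composition.

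Il11 was close to its detection limit in sham cortex. The raw counts of the 5 ipsilateral sham libraries were 6, 6, 12, 14 and 14, which correspond to 0.0957, 0.111, 0.231, 0.266 and 0.314 CPM. In the 6 ipsilateral PBBI libraries the counts ran from 82 to 2653 with a median of 859.5, and the CPM from 1.21 to 38.3 with a median of 14.5. Even the lowest injured rat was above every sham rat, but the injured rats themselves spanned a 31.6-fold range, the widest of the 4 genes. Il11 averaged 16.1 CPM ± 13.8 (SD, n = 6) after PBBI, against 0.204 ± 0.0961 (SD, n = 5) after sham surgery. The quasi-likelihood test of edgeR put the difference at 6.31 on the log2 scale, with a standard error of 0.889 and an adjusted p of 0.00286. DESeq2 with a prior that shrinks fold changes gave 4.17. Between 60.8% and 69.6% of the counts from 1 to 19 in a library were even, which bears on sham counts as low as these of Il11, and its cause was not tested.

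Clcf1, the second gp130 ligand, was also low in sham. Its 5 ipsilateral sham libraries had 20, 28, 28, 46 and 104 counts, or 0.33, 0.533, 0.732, 0.854 and 1.66 CPM. The 6 PBBI libraries had 135 to 1402 counts with a median of 661.5, or 2 to 20.3 CPM with a median of 9.79. The gap between the groups was narrow, since the highest sham rat (91) had 1.66 CPM and the lowest injured rat (83) had 2 CPM. Clcf1 averaged 9.83 CPM ± 6.79 (SD, n = 6) after PBBI, against 0.821 ± 0.509 (SD, n = 5), and edgeR put the difference at 3.58 on the log2 scale, with a standard error of 0.63 and an adjusted p of 0.00792. With the prior of DESeq2 it was 2.79.

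Il4r, the receptor, was the only gene of the 4 well expressed in sham cortex, with at least 453 counts in every sham library. The ipsilateral sham libraries had 9.67, 11, 11.8, 13.6 and 13.8 CPM, and the PBBI libraries had 23 to 69.9 CPM with a median of 44.4. All injured rats lay above all sham rats, and Il4r varied least among the injured, by 3.03-fold. Il4r averaged 48.1 CPM ± 17.4 (SD, n = 6) after PBBI, against 12 ± 1.75 (SD, n = 5), and edgeR put the difference at 2.01 on the log2 scale, with a standard error of 0.281 and an adjusted p of 0.00283.

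Socs3, the feedback inhibitor, had 14, 31, 32, 33 and 73 counts in the ipsilateral sham libraries, or 0.366, 0.494, 0.594, 0.628 and 1.2 CPM. The PBBI libraries had 570 to 3326 counts with a median of 1819, or 8.43 to 51.8 CPM with a median of 25.6. The lowest injured rat was thus far above the highest sham rat. Socs3 averaged 26.5 CPM ± 16.1 (SD, n = 6) after PBBI, against 0.657 ± 0.322 (SD, n = 5). The difference was 5.32 on the log2 scale, with a standard error of 0.554 and an adjusted p of 0.00102 from edgeR, and it was rank 6 by p among 16104 genes. With the prior of DESeq2 it was 4.43.

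**Figure D1:**
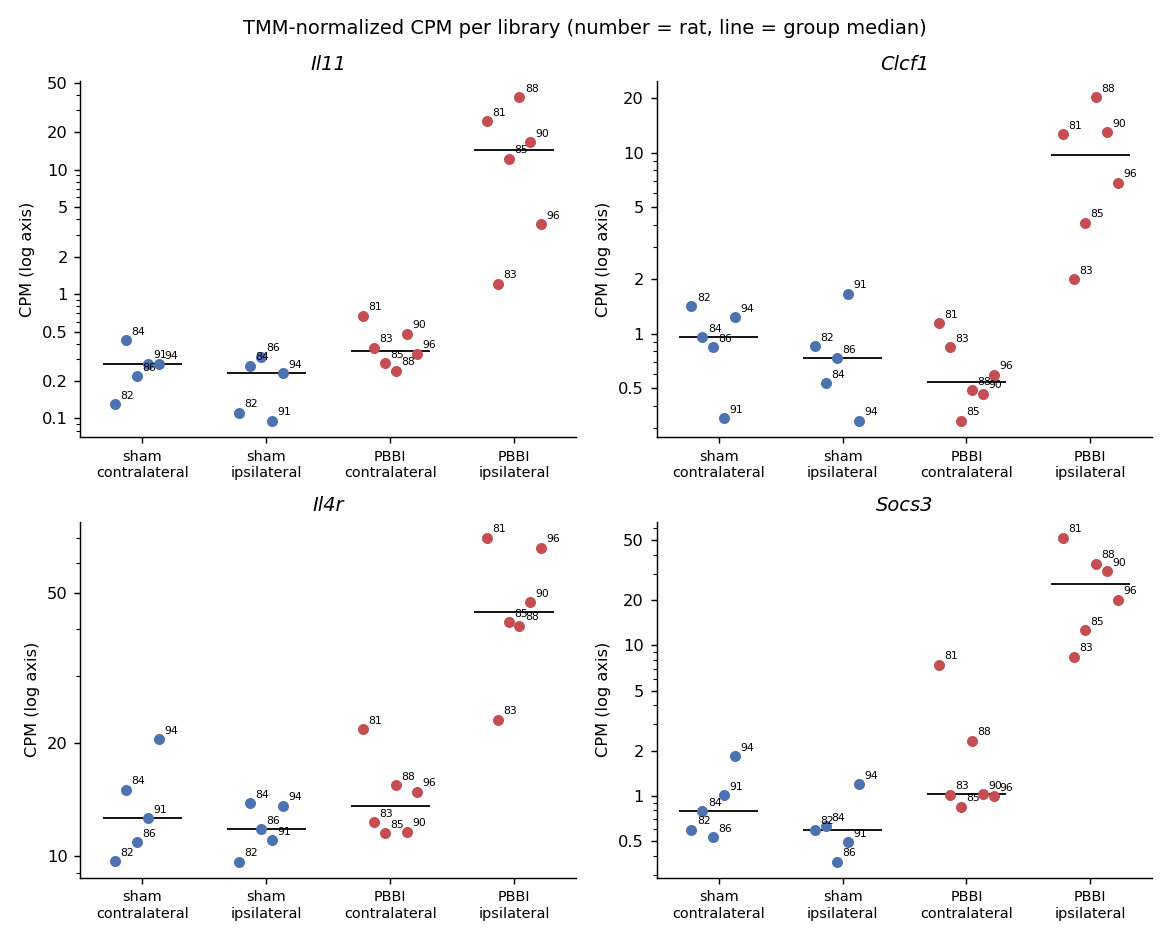
TMM-normalized CPM of Il11, Clcf1, Il4r and Socs3 (log axis) in each of the 22 libraries, by group. Points are libraries labelled with the rat's number, blue for sham and red for PBBI, and lines are group medians. The ipsilateral PBBI libraries lie above all ipsilateral sham libraries for each gene, rat 83 is the lowest of them throughout, and rat 81 is the highest contralateral PBBI library throughout.

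All 4 of the 4 genes were past the threshold of an adjusted p of 0.05, while 4.68% of the 16104 genes tested were past it, 4.09% with the higher level in PBBI. Of the 1684 named genes tested, most of them named through the study's ipsilateral calls, 38.3% passed with the higher level in PBBI. Complete separation with PBBI on top was seen in 3.4% of all genes. When the 11 rats were split in every possible way, the exact permutation test (two-sided) gave p = 0.00433 for each of the 4, the smallest value this design allows. Each of the 4 passed in all 11 edgeR fits that left out 1 rat. Without rat 85 the log2 fold changes were 6.38 for Il11, 3.75 for Clcf1, 2.04 for Il4r and 5.47 for Socs3. The lowest of the 6 ipsilateral PBBI values belonged to rat 83 for every gene, and without that rat they were 6.56, 3.79, 2.15 and 5.51.

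Per kilobase of exon, which allows levels to be compared between genes, the order of the 4 genes differed between the groups. In ipsilateral sham cortex Il4r was highest at 3.36 CPM per kb ± 0.491 (SD, n = 5). Socs3 followed at 0.761 ± 0.373, then Clcf1 at 0.364 ± 0.225 and Il11 at 0.12 ± 0.0568, and of the neighbouring pairs only Il4r and Socs3 were further apart than their SDs. In ipsilateral PBBI cortex Socs3 came first at 30.7 CPM per kb ± 18.6 (SD, n = 6), before Il4r at 13.5 ± 4.88, Il11 at 9.53 ± 8.18 and Clcf1 at 4.36 ± 3.01, and each neighbouring pair in this order overlapped in its SD. Within single libraries the change of order was clearer. The level of Socs3 was between 0.128 and 0.366 times that of Il4r in the 5 ipsilateral sham libraries and between 1.25 and 3.52 times that of Il4r in the 6 ipsilateral PBBI libraries. In contralateral PBBI libraries this ratio had a median of 0.355, and rat 81 reached 1.41. The level of Il11 had a median of 0.572 times that of Clcf1 in ipsilateral sham and 2.12 times in ipsilateral PBBI, with rats on both sides of 1 in the injured group, since rat 96 had 0.714 and rat 85 had 3.99.

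In the contralateral hemisphere no gene passed at an adjusted p of 0.05 with edgeR (0% of 15907), 2.3% had an unadjusted p under 0.05, and DESeq2 called 3 genes without its prior on fold changes and 0 with it, limma voom 1. Il11, Clcf1, Il4r and Socs3 were not among the genes called by any of these tests. This is a limit of the comparison and does not show that the groups were alike.

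Of the 4 genes, Socs3 had the smallest contralateral p in edgeR. Its 5 sham libraries had 0.529, 0.596, 0.789, 1.01 and 1.83 CPM, and its 6 PBBI libraries had 0.848 to 7.45 CPM with a median of 1.03. The groups overlapped, and the upper end of the PBBI group was rat 81 at 7.45 CPM, ahead of rat 88 at 2.32. The log2 fold change was 1.26 (95% interval -0.05 to 2.58, unadjusted p = 0.0589 and adjusted p = 1 from edgeR), and without rat 81 it was 0.38. The two-sided exact permutation test gave p = 0.173, which was not the smallest of the 4.

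For contralateral Il11 the sham libraries had 0.13, 0.219, 0.274, 0.276 and 0.427 CPM and the PBBI libraries 0.243 to 0.669 with a median of 0.352, a log2 fold change of 0.56 (95% interval -0.27 to 1.39). For contralateral Clcf1 the sham libraries had 0.341, 0.838, 0.953, 1.23 and 1.42 CPM and the PBBI libraries 0.329 to 1.14 with a median of 0.539, a log2 fold change of -0.58 (95% interval -1.44 to 0.29). For contralateral Il4r the sham libraries had 9.68, 10.9, 12.6, 15 and 20.4 CPM and the PBBI libraries 11.5 to 21.7 with a median of 13.6, a log2 fold change of 0.08 (95% interval -0.44 to 0.59). The groups overlapped for all 3 genes, with exact permutation p = 0.13, 0.221 and 0.68. Rat 81, whose libraries are titled differently from those of the other PBBI rats, had the highest contralateral PBBI value of each of Il11, Clcf1, Il4r and Socs3. The intervals leave room for a contralateral difference of up to 2.58 on the log2 scale for Socs3, and for a smaller one, of at most 0.59, for Il4r.

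Whether the injury effect differed between the hemispheres was tested as an interaction over all 22 libraries, which share the ipsilateral PBBI samples with the comparison above. All 4 genes passed, where 0.307% of the 16587 genes tested and 2.97% of the 1720 named ones passed in this direction. The injury effect was larger ipsilaterally by 5.75 on the log2 scale for Il11 (standard error 0.887, adjusted p = 0.0155 from edgeR), which had the smallest p of all genes tested. It was larger by 4.15 for Clcf1 (standard error 0.737, adjusted p = 0.0224 from edgeR), by 4.06 for Socs3 (standard error 0.82, adjusted p = 0.0377) and by 1.93 for Il4r (standard error 0.358, adjusted p = 0.0289).

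The calls of this unpaired interaction depended on single rats, over all genes as well as for the 4. None of the 4 genes passed without sham rat 82, 84, 86 or 94 or without PBBI rat 88 or 90, where 0 or 1 of all genes tested passed. Of the 4, 1 passed without sham rat 91 or PBBI rat 96, where 1 and 2 of all genes passed. All 4 passed without PBBI rat 81, 83 or 85, where 98, 255 and 58 of all genes passed. Across these 11 fits the interaction ranged from 5.18 to 6.01 for Il11, from 3.74 to 4.79 for Clcf1, from 3.86 to 4.63 for Socs3 and from 1.78 to 2.03 for Il4r. With the rat as a block, which pairs the hemispheres of each animal, 4.27% of genes passed in either direction and 2.95% in this one, and the interaction was 4.31 for Socs3 (adjusted p = 0.000814 from edgeR, now the smallest p of all genes), 1.84 for Il4r (adjusted p = 0.00385), 5.21 for Il11 (adjusted p = 0.0106) and 4.03 for Clcf1 (adjusted p = 0.0197). Leaving out rat 85 from the paired fit kept all 4. In the 11 paired fits that each left out 1 rat, added after the data were seen, Il11, Il4r and Socs3 passed in all 11 and Clcf1 in 9, missing it without sham rat 82 (adjusted p = 0.0614) and without sham rat 84 (adjusted p = 0.0606).

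Within PBBI rats each of the 4 genes was higher in the injured than in the opposite hemisphere of all 6 rats, as were 10.4% of the 15973 genes tested. The ipsilateral level was 3.26 to 158 times the contralateral for Il11, 2.38 to 41.7 times for Clcf1, 6.95 to 30.1 times for Socs3 and 1.87 to 4.44 times for Il4r. Rat 83 had the smallest ratio for Il11, Clcf1 and Il4r, and rat 81, with its high contralateral Socs3, had the smallest for Socs3. The ipsilateral and contralateral PBBI libraries did not overlap for any of the 4, which held for 1.54% of all genes. Neither share was computed over the named genes alone. Their median log2 difference between these hemispheres was 0.97, against 0.03 over all genes tested.

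In edgeR the log2 difference between the hemispheres of PBBI rats was 5.35 for Il11 (adjusted p = 0.00767), 3.94 for Clcf1 (adjusted p = 0.00767), 3.54 for Socs3 (adjusted p = 0.0155) and 1.74 for Il4r (adjusted p = 0.0095). In this direction 2.97% of all genes and 27.2% of the 1659 named genes tested passed. The exact permutation test that flips signs within rats gave p = 0.0312 for each of the 4, the smallest that 6 rats allow. No gene of the 4 passed without PBBI rat 88, 1 passed without rat 96 and 2 without rat 90. Over all genes tested, 1, 6 and 42 passed in those fits. With the rat as a block all 4 passed, and they did so in all 6 fits that each left out 1 rat, where 10.3% of all genes passed with every rat included, 6.68% in this direction.

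Within sham rats no gene passed between the hemispheres (0% of 15747 with edgeR, 0.298% at an unadjusted p under 0.05, and 0 genes with DESeq2 or limma voom). Socs3 was lower ipsilaterally in 5 of 5 sham rats, as were 2.27% of all genes tested, with ipsilateral levels from 0.491 to 0.997 times the contralateral. The log2 difference was -0.53 (95% interval -1.47 to 0.42 from edgeR), and the exact permutation test gave p = 0.0625, the smallest that 5 rats allow. For Clcf1 a single sham rat (91) was higher ipsilaterally, by 4.86 times, and the other 4 were lower. Il11 and Il4r were each higher ipsilaterally in 1 of 5 sham rats.

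**Figure D2:**
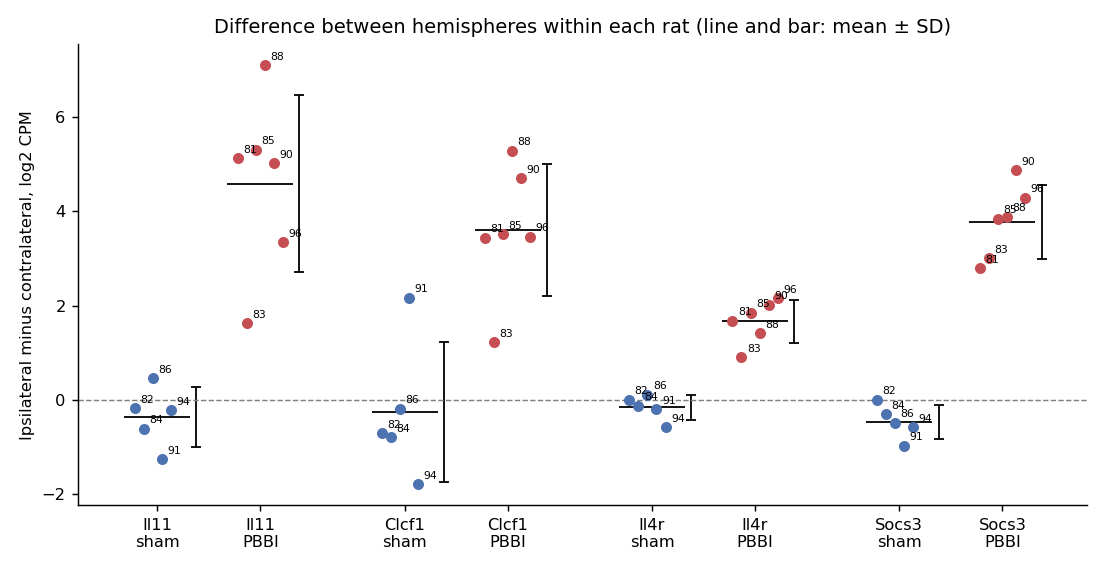
Ipsilateral minus contralateral log2 CPM of each rat for the 4 genes, blue for the 5 sham and red for the 6 PBBI rats, with the mean (line) and SD (bar) of each group beside the points. All 6 PBBI rats lie above 0 for each gene, and the 5 sham rats scatter on both sides of 0 or just under it, most widely for Clcf1, from -1.80 in rat 94 to 2.17 in rat 91.

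Whether Socs3 followed the ligands was examined across the 6 ipsilateral PBBI libraries. From high to low, Socs3 ordered the rats 81, 88, 90, 96, 85 and 83. Clcf1 put the same 3 rats on top, in the order 88, 90 and 81, and then 96, 85 and 83. Il11 ordered them 88, 81, 90, 85, 96 and 83, so that the 3 highest rats were again the same. Il4r ordered them differently, as 81, 96, 90, 85, 88 and 83.

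On log2 CPM, Pearson's r with Socs3 was 0.931 for Clcf1 (permutation p = 0.00833 over all 720 orders, Spearman's rho 0.829 with p = 0.0583), 0.812 for Il11 (permutation p = 0.0486, rho 0.886 with p = 0.0333) and 0.733 for Il4r (permutation p = 0.0833, rho 0.6 with p = 0.242). After adjustment over the 14 relations examined, with 7 genes in each hemisphere, these p-values were 0.0972, 0.17 and 0.194 for r and 0.204, 0.204 and 0.483 for rho, so no relation passed. Without the 2 rats farthest from the median, r was 0.636 for Clcf1, 0.716 for Il11 and -0.101 for Il4r, and the relation of Il4r with Socs3 thus rested on rats 81 and 83. Leaving out rat 83 alone gave the lowest r of any single rat for each of the 3, namely 0.859 for Clcf1, 0.594 for Il11 and 0.389 for Il4r. An r with Socs3 at least as high was found for 1.02% of 16586 genes in the case of Clcf1, 4.73% for Il11 and 8.07% for Il4r. Many genes that are no ligands thus had an r with Socs3 as high across these rats.

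The other gp130 ligands had positive r with ipsilateral Socs3 too, at 0.837 for Osm (oncostatin M), 0.774 for Lif (leukaemia inhibitory factor), 0.635 for Il6 (interleukin-6) and 0.48 for Il27. After removal of the 2 rats farthest from the median, Il6 turned to -0.403 and Osm fell to 0.101. None passed the adjustment.

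Contralaterally in PBBI rats, r with Socs3 was 0.931 for Il4r (permutation p = 0.0139, adjusted 0.0972, rho 0.771), 0.677 for Clcf1 (permutation p = 0.157) and 0.57 for Il11 (permutation p = 0.268). Without rat 81, r was -0.509 for Il11 and 0.0484 for Clcf1. For Il11 r was 0.855 without rat 88 and 0.827 without both rats 81 and 88, so its sign depended on which rats were left out. For Il4r r was 0.701 without rat 81. Both ligands were low on this side, at 16 to 41 counts of Il11 and 19 to 70 of Clcf1 per library. Contralateral Lif, at 2 to 26 counts, had r = 0.647 (permutation p = 0.151, adjusted 0.275) and rho 0.886 (permutation p = 0.0333, adjusted 0.204).

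**Figure D3:**
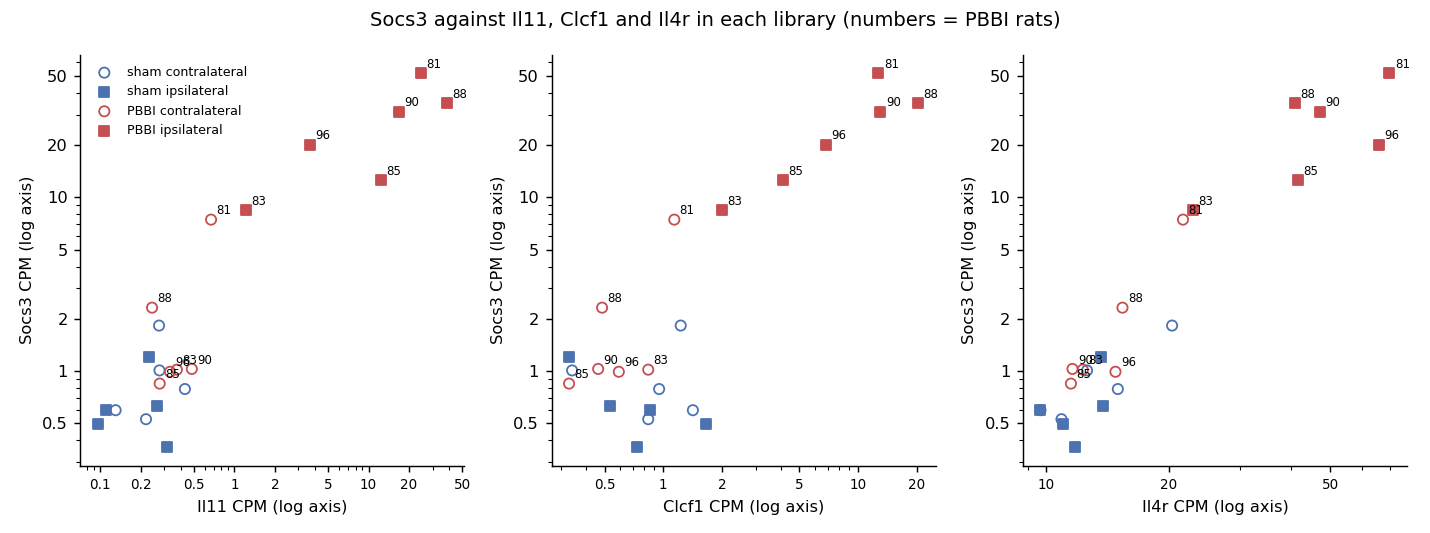
Socs3 CPM against the CPM of Il11, Clcf1 and Il4r in each of the 22 libraries (log axes), circles for contralateral and squares for ipsilateral, blue for sham and red for PBBI, with PBBI rats numbered. The ipsilateral PBBI libraries form a group of their own at the upper right, and within it Socs3 rises with Clcf1 in nearly every step, while the contralateral library of rat 81 reaches 7.45 CPM of Socs3 with 0.669 CPM of Il11.

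The genes whose log2 CPM was most like each of the 4 over all 22 libraries were found among 1078 or 1079 named genes. The ipsilateral PBBI libraries stand apart for all of them, so these correlations largely describe that separation. For Il11 they were Emp1 (r = 0.972), Aen (0.964) and Myc (0.964), and for Clcf1 they included Mtap (0.933) and Hbegf (0.925). For Il4r they included Lsp1 (0.955) and Socs3 itself (0.952). For Socs3 they were Lsp1 (0.982), Timp1 (0.977) and Cd14 (0.972). Among the 4 genes, Socs3 was more alike to Il4r than to Il11 (0.926) or Clcf1 (0.851).

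Il11, Clcf1, Il4r and Socs3 are part of a wider list of 75 genes of gp130 and IL-4 signalling, of which 36 could be named and 34 were tested ipsilaterally. Of these 34, 24 rose and 0 fell in PBBI, and without the 4 genes it was 20 of 30. Over all genes tested 4.09% rose, but over the named ones, which were mostly chosen by the study's own ipsilateral calls, it was 38.3%. The list's median log2 fold change was 1.94, or 1.79 without the 4, against -0.02 over all genes tested. The median over all named genes was 1.25. The number past the threshold was 29 without PBBI rat 85, 29 without rat 83, and 11 to 18 without any other single rat. Calls over all genes moved in the same way, at 2186, 1158 and 316 to 465 in those fits, against 753 with every rat.

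Of the 6 gp130 ligands that could be named, Il11, Clcf1, Lif (log2 fold change 5.13, adjusted p = 0.0191 from edgeR) and Osm (3.56, adjusted p = 0.0375) rose, while Il6 had 3.26 (adjusted p = 0.0506) and Il27 had 1.87 (adjusted p = 0.187). Il11 thus had the largest log2 fold change of the 6. Among their receptors, Osmr, which carries the oncostatin M signal, rose by 3.68 and Il6r, the IL-6 binding chain, by 1.08, both past the threshold, and Il27ra had 1.64 (adjusted p = 0.059). In the next step, the kinase gene Jak2 (0.98) and the transcription factor genes Stat3 (2.09) and Stat5a (1.27) rose, and Jak3 had 1.69 (adjusted p = 0.0591).

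Of the feedback genes, Socs3 stood well above the others in log2 fold change. The phosphatase genes Ptpn6 (1.47) and Ptpn2 (0.96) rose too, whereas Socs1 (1.47, adjusted p = 0.12 from edgeR) and Cish (1.07, adjusted p = 0.192) did not pass. Of 13 genes listed as targets of STAT3, 11 rose, to be read against the 38.3% of all named genes and 4.09% of all genes that did. The largest were Reg3g, a secreted lectin, at 6.52, Timp1, an inhibitor of matrix proteases, at 5.37, Lcn2, lipocalin-2, at 3.79, Bcl3 at 3.75 and Gfap, the astrocyte filament, at 2.99. Reg3g had 0 to 24 counts with a median of 0 in ipsilateral sham libraries and 6 to 1326 in ipsilateral PBBI libraries. Its groups overlapped, and the standard error of its log2 fold change was 1.6. Pim1 (1.72, adjusted p = 0.0816) and Hif1a (0.66, adjusted p = 0.114) did not pass. For IL-4 signalling, Il4r was the only gene of its arm with a name. Of its listed targets, Arg1, arginase, had 1.45 (adjusted p = 0.168) and Bcl6 had 0.78 (adjusted p = 0.148), so neither passed. Ccl22, a chemokine, was too low to be tested, at 0 counts in all 5 ipsilateral sham libraries and 0 to 76 with a median of 18 in PBBI.

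**Figure D4:**
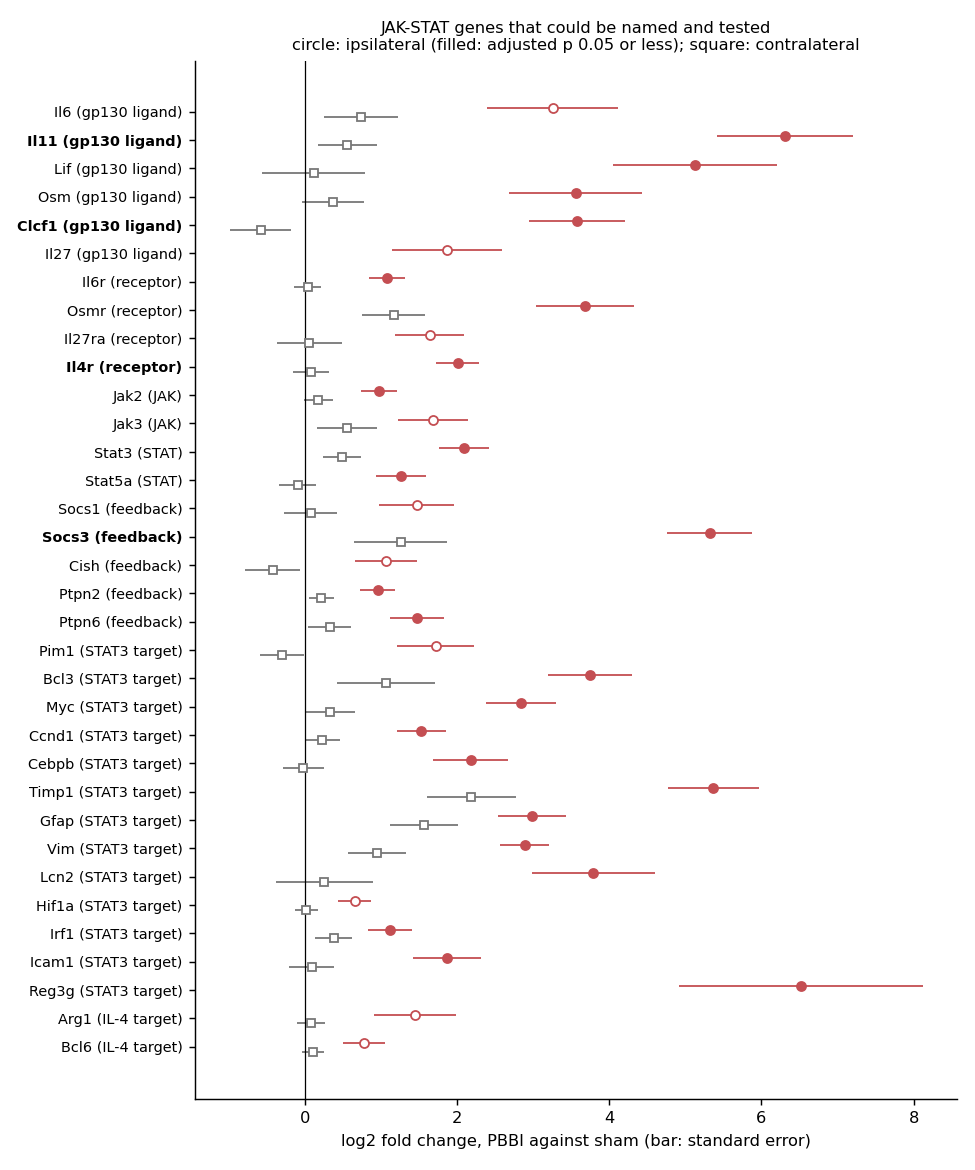
Log2 fold change of PBBI against sham with its standard error for the 34 named JAK-STAT genes tested ipsilaterally, grouped by role. Circles are the ipsilateral hemisphere, filled where the adjusted p was 0.05 or less, grey squares are the contralateral hemisphere where tested, and Il11, Clcf1, Il4r and Socs3 are in bold. All ipsilateral values are above 0 and no contralateral value passed.

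Contralaterally 0 of the 32 list genes tested passed with edgeR. Those with an unadjusted p under 0.05 were Timp1 (log2 fold change 2.19), Gfap (1.57), Osmr (1.17) and Vim (0.95), each with an adjusted p of 1 in edgeR. Over all 15907 genes tested 2.3% had such an unadjusted p, and the share over named genes was not computed. In the interaction 5 of 34 list genes passed, namely Il11, Clcf1, Il4r, Socs3 and Myc (2.5, adjusted p = 0.0498), where 0.326% of all genes passed. Without the 4 genes it was 1 of 30, near the 2.97% of all named genes that passed with the larger effect ipsilaterally. With the rat as a block 22 list genes did so, where 4.27% of all genes passed. The share over named genes was not computed for that fit.

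Some markers of other cell types rose with the 4 genes ipsilaterally, while others were lower or did not pass. Of 8 microglia and macrophage markers 4 could be named: Cd14 (5.17), Msr1 (5.02) and Itgam (2.58) rose in log2 fold change, and Tmem119, a marker of resident microglia, had -0.92 (adjusted p = 0.0799 from edgeR). Their summed level was 34.9 to 50.4 CPM in ipsilateral sham and 41.1 to 219 CPM in ipsilateral PBBI, so the groups overlapped, and the lowest injured library was that of rat 85. Of 5 astrocyte markers 2 could be named, and their sum, nearly all of it Gfap, was 344 to 910 CPM in sham and 1762 to 6885 CPM in PBBI, while Aldh1l1 fell by 0.96 on the log2 scale. The 5 named neutrophil markers of 6 had a sum of 5.12 to 50.6 CPM in sham and 10.9 to 186 CPM in PBBI, overlapping between the groups, none of the 3 that were tested passed, and Elane was at 0 in every ipsilateral sham library. The 2 named lymphocyte markers of 5 summed to 0.0928 to 1.47 CPM in sham and 2.22 to 8.2 CPM in PBBI. Rat 83, lowest for Il11, Clcf1, Il4r and Socs3, was also the lowest injured library for the neutrophil and lymphocyte sums. For the astrocyte sum and for the microglia and macrophage sum the lowest was rat 85. The part of these cells in the levels of the 4 genes was not tested.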

How the data were processed

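Total RNA of cortex was depleted of ribosomal RNA and made into stranded libraries for paired-end sequencing. The authors aligned reads with STAR 2.4.2a and counted them on Ensembl Rnor 6.0 genes with featureCounts 1.4.3-p1, and the values they deposited are raw counts per gene and library. How strand and reads aligning to several places were handled is not given in the sources used here, and no molecular identifiers are named, so counts are not independent molecules. The labels' treatment and hemisphere set the 4 groups, and their animal ID ties each pair of libraries to a rat.

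Counts were tested with edgeR 4.0.16 (quasi-likelihood, TMM, filterByExpr) in R 4.3.3, over 11 libraries of 1 hemisphere, over all 22 for the interaction, and between hemispheres within each treatment. Benjamini-Hochberg adjustment ran over all genes tested, with a threshold of 0.05. Log2 CPM used a prior count of 2. Single genes were also tested with two-sided exact permutation tests over rats (scipy 1.17.1). Alternatives were DESeq2 1.42.0 (the study's tool for each hemisphere), run without or with a normal prior on fold changes, limma 3.58.1 voom with quality weights, RLE size factors, all genes with any count, a minimum of 10 counts in each library, all 22 libraries in a joint fit, the rat as a block, and each rat left out. The tests were tried on simulated counts with known changes.

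Each rat gave 1 library per hemisphere. After subtraction of group means their correlation was 0.246 to 0.758 in the 11 rats, so paired fits are given where they moved a count of calls. No rat had a mean correlation with other rats above -0.0154. Subtracting group means itself lowers the correlation between rats of a group, so that value is no fair yardstick for the pairing. No libraries of a group agreed within sampling noise. The members and lists were chosen with earlier results of these data known. Named genes are the 4 members, named list and marker genes, and for each member the 3 most correlated genes with a name and a mean of 1 or more on the log2 CPM scale, of which some are not reported here. Genes of the lists without a name, Il6st and Lifr among them, were not analysed here. Sleep measurements were not used here.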

Additional observations from a re-analysis of the deposited data

Results flagged for a closer look

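The effect of PBBI differed between the hemispheres for each of the 4 genes by the interaction test of edgeR over 22 libraries. This contrast contains the ipsilateral difference through which the genes were named, so it is a description and not independent evidence. Of the 1720 named genes tested, 2.97% passed with the larger effect ipsilaterally. The ipsilateral effect exceeded the contralateral one by 5.75 on the log2 scale for Il11, by 4.15 for Clcf1, by 4.06 for Socs3 and by 1.93 for Il4r. The difference kept its sign in every fit that left out 1 rat, with and without pairing, although the unpaired test then often missed the threshold. No library stood apart by Dixon's criterion in the 16 sets of a gene and a group, of which chance alone would mark about 1 in 20.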

How the results depend on the processing

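The ipsilateral calls of all 4 genes held with DESeq2, limma voom, RLE size factors, no filter and all 22 libraries in a joint fit, and without any single rat, except that Il11 could not be tested with at least 10 counts in every sample. DESeq2 with its prior gave smaller sizes, with ipsilateral log2 fold changes of 4.17 for Il11, 4.43 for Socs3, 2.79 for Clcf1 and 1.89 for Il4r. The interaction calls of the 4 genes ranged from 0 to 4 without a single rat, where 0 to 255 of all genes passed. Those between the hemispheres of PBBI rats ranged from 0 to 4, where 1 to 1149 of all genes passed. With the replicate block all 4 genes passed in both, and in the paired fits without a single rat 3 to 4 passed in the interaction. The sign of contralateral Il4r was unstable, at -0.08 without PBBI rat 81, -0.03 without sham rat 82 and up to 0.28 without others, and Clcf1 between the sham hemispheres ranged from -0.88 without sham rat 91 to 0.11 without sham rat 94. None of these passed.

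Of the list genes, 11 to 29 passed ipsilaterally without a single rat, where 316 to 2186 of all genes passed. In the interaction 17 passed with DESeq2, 20 with its prior, 23 with voom and 22 with the replicate block, 0 to 12 without a single rat and 11 to 27 when those fits were paired (11, 11, 13, 15 and 17 without sham rats 82, 84, 91, 86 and 94, and 19, 27, 26, 14, 14 and 14 without PBBI rats 81, 83, 85, 88, 90 and 96). Over all genes, the interaction calls were 353 with DESeq2, 478 with its prior, 1663 with voom and 708 with the block. They were 0 to 255 without a single rat and 192 to 1358 when those fits were paired. Between the hemispheres of PBBI rats 31 list genes passed with voom, 0 to 24 without a single rat and 12 to 29 when paired. Over all genes, 3695, 1 to 1149 and 263 to 3356 passed there. With the block 28 of 33 list genes passed between these hemispheres against 19 without it. Il6 missed the threshold with the block (adjusted p = 0.0938 from edgeR, 0.0377 unpaired). Of the marker genes, the block added S100a8 (2.16) and S100a9 (1.99) among others to the interaction, and Tmem119 with the opposite sign (-1.15). The block changed no call of the 4 genes. Without the 2 farthest rats, Socs3's r was -0.403 with ipsilateral Il6, and contralaterally -0.433 with Clcf1, -0.889 with Il6 and -0.975 with Il27. It stayed positive contralaterally at 0.827 with Il11, 0.621 with Il4r, 0.569 with Lif and 0.48 with Osm. Without single rats the contralateral r was -0.509 to 0.855 for Il11 and 0.701 to 0.996 for Il4r. Causes were not tested. Low sham counts, of 6 to 14 for ipsilateral Il11, limit the precision of its fold change.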

Other observations

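The ipsilateral library of PBBI rat 85 differed in which gp130 genes were high, a pattern chosen after its values were seen. Il11 had 562 counts there, or 12.3 CPM, close to the group's median of 14.5 CPM. Lif, in contrast, had 2 counts (0.0438 CPM), below every ipsilateral sham library, while the other 5 injured rats had 0.562 to 12.1 CPM. Osmr had 37 counts in rat 85 (0.809 CPM) and 2.93 to 13.9 CPM in the other 5. Osm was not low in that rat, at 2.14 CPM, nor was Il6, at 3.94 CPM. This is the library that stood apart from its group over all genes, and the cause was not tested.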
